A study of Homo sapiens with 17 samples.

Results

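The TRAF adaptor family consists of the 7 genes TRAF1 to TRAF7, which were taken by symbol from the 58870 gene entries of the deposited table, and all 7 were found. The cells were MDA-MB-231, a long-established human line grown from a triple-negative breast cancer, which the labels class as mesenchymal and basal B. Cells were given 45 nM TRAIL, a TNF-family ligand that binds death receptors, and RNA was collected at 0, 1, 3, 6, 12 and 24 h, giving 3 libraries per time, or 2 at 1 h, in the data analysed here. The labels call the dose suboptimal and name no gene alteration, so the groups differed by time alone. Every library, the 0 h libraries included, is labelled as TRAIL treated, and no untreated library of a later time was analysed here. The effect of TRAIL and that of hours in culture therefore cannot be told apart.

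TRAF proteins join the intracellular tails of TNF receptors, interleukin-1 receptors and Toll-like receptors to kinases. Most carry a RING domain that transfers ubiquitin and a C-terminal TRAF domain (also called MATH domain) that grips receptor tails. TRAF2 and TRAF3 together recruit the ubiquitin ligases BIRC2 and BIRC3 (cIAP1 and cIAP2) to MAP3K14 (NIK), which keeps this kinase low and the non-canonical NF-κB pathway off. TRAF1 lacks the RING domain, pairs with TRAF2 and is a well known NF-κB target gene. TRAF5 is a close relative that works with TRAF2 and TRAF3 at several TNF receptors, and TRAF6 carries interleukin-1 and Toll-like receptor signals to the kinase MAP3K7 (TAK1). TRAF4 is best known at cell junctions and in carcinoma, and TRAF7 has WD40 repeats in place of the TRAF domain.

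Upstream sequences are shown for TRAF1 and TRAF3, the members called higher than 0 h at the most times (4 for TRAF1 and 3 for TRAF3), each as the 250 bases before the first start listed in RefSeq on GRCh38.p14, read 5′ to 3′ along the gene. The TRAF1 stretch is chr9:120929172-120929421 on the minus strand and the TRAF3 stretch is chr14:102777199-102777448 on the plus strand. Capitals mark a match to the consensus site of NF-κB (the κB site), which was searched on both strands.
TRAF1: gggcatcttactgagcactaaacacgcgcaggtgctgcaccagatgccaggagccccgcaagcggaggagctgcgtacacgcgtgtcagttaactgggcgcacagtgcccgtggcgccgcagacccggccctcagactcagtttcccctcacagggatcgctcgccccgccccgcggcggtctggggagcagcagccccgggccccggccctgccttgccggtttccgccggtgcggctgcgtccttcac
TRAF3: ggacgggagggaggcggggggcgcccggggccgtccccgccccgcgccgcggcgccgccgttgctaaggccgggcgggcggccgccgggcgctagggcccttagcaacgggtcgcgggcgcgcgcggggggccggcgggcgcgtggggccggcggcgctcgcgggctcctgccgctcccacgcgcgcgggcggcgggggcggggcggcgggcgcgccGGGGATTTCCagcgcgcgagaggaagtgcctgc
The match upstream of TRAF3 lies at chr14:102777416-102777425, from -33 to -24 relative to the start base. RefSeq lists 11 starts for the 7 members, and windows of 300 bases (250 before and 50 after each start) were searched. The κB consensus was found in 1 of the 11 windows, and the site of AP-1, TGANTCA on both strands, was found in 0. Over 34943 such windows of all genes, 11.3% held the κB consensus and 7.72% the AP-1 site. These are matches of letters in a short window and no binding was measured.

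Total counts lay between 13731497 and 19234939 per library, and mitochondrial genes held 3.66% to 9.71% of them. This share moved with time. It was 5.53% to 8.37% in the 0 h libraries, 7.65% to 9.71% (1 h) and 7.99% to 8.97% (3 h), then 3.97% to 5.45% (6 h), 5.01% to 6.8% (12 h) and 3.66% to 4.14% (24 h), so that libraries of 6 h and 24 h lay below all of 0 h. Its part in the results was not tested. Markers of the line were high in every library, with VIM (vimentin) at 2490 to 3720 counts per 1000000 (CPM, on totals scaled for composition) and CD44 at 1220 to 1560 CPM. CDH1 (E-cadherin) reached at most 1.01 CPM, ESR1 (oestrogen receptor) at most 2 counts, the leukocyte marker PTPRC at most 5 counts and the T-cell marker CD3E 0, whereas EPCAM was present at 13.1 to 19.3 CPM. Some markers of other cell types were present too. The fibroblast markers COL1A1 and PDGFRB were at 5.87 to 17.4 and 1.71 to 4.57 CPM. The endothelial marker PECAM1 was at 0.789 to 3.98 CPM and the myeloid marker CD14 at 0.73 to 1.98 CPM, while VWF (endothelial) and LYZ (myeloid) reached at most 5 and 6 counts. Counts of replicates 2 and 3 lay closer to each other at 6 h and at 24 h (chi-square per gene of 1.55 and 1.7) than those of any other pair of the same time (4.06 to 15.2), and they were kept as separate libraries. In these bulk samples, fewer cells that hold a transcript and less of it per cell cannot be told apart.

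All 7 members passed the filter on low counts, with fewest counts for TRAF6 (141 to 298 per library) and most for TRAF7 (1058 to 1512). A gene is called higher or lower when its p-value in edgeR's quasi-likelihood test, adjusted by the Benjamini-Hochberg method over 15365 genes, is below 0.05. Over all times together 6 of the 7 members changed, all but TRAF5, while 64.2% of all tested genes changed. At 1 h, 0 members were called higher and 0 lower (background 0.26% higher and 0.0521% lower), with adjusted p of 0.987 or more and 0 members at an unadjusted p below 0.05. At 3 h, TRAF1, TRAF2, TRAF3 and TRAF4 were higher, 4 of 7 members against 9.04% of all genes, and 0 were lower against 8.71%. At 6 h, TRAF6 joined these 4, making 5 of 7 against 16.9%, and 0 were lower against 13.2%. At 12 h, TRAF1 alone was higher, 1 of 7 against 5.96%, and 0 were lower against 6.48%. At 24 h, TRAF1 and TRAF3 were higher, 2 of 7 against 18%, and 0 were lower against 17.1%. With 7 genes, the counts of 1 at 12 h and 2 at 24 h lie near the shares of all genes, as does the 6 of 7 over all times. The median log2 fold change of the 7 members was 0.34 at 3 h and 0.34 at 6 h, beside -0.0041 and -0.022 over all genes tested.

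**Figure D1:**
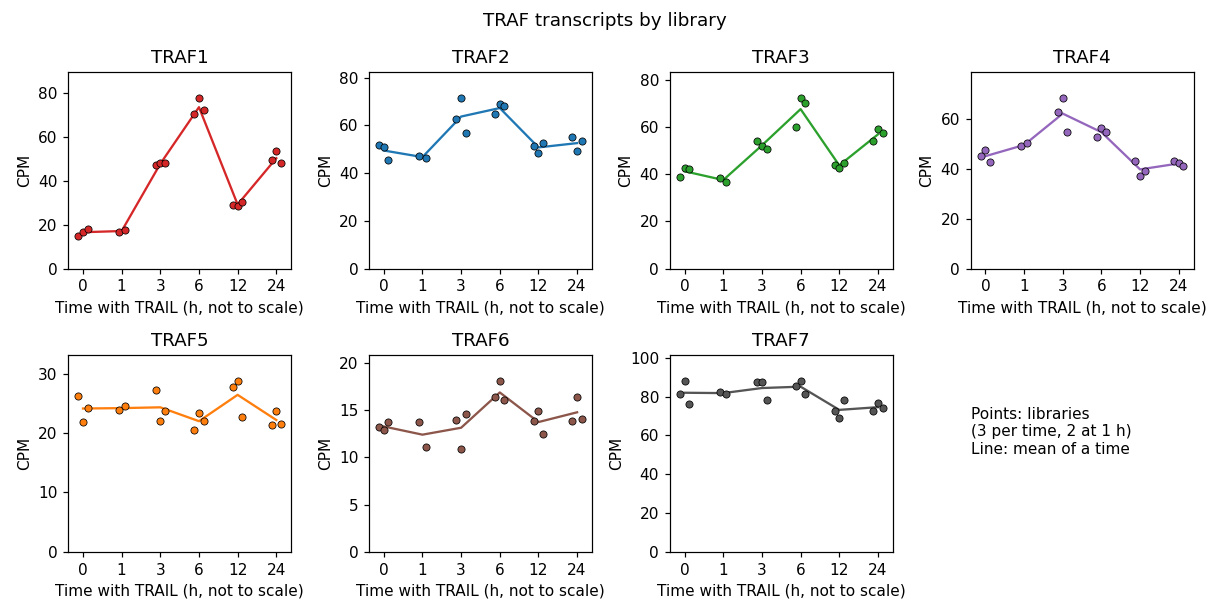
Depth-scaled level of each TRAF gene (y axis, CPM, from 0 in each panel) by hours with TRAIL (x axis), with 1 point per library and a line through the means of each time. TRAF1 climbs from 14.9 to 18.1 CPM at 0 h to 70.7 to 78 CPM at 6 h, while TRAF5 and TRAF7 overlap with 0 h at every time.

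TRAF1 (ENSG00000056558, chr9:120902393-120929173, minus strand, GENCODE 29 on GRCh38) had the largest fold changes of the family from 3 h on. The 3 libraries of 0 h held 14.9, 16.8 and 18.1 CPM and those of 1 h held 16.5 and 17.8, before the 3 h libraries reached 47.2, 48.2 and 48. Libraries of 6 h held 70.7, 78 and 72.1 CPM, followed by 28.8, 28.6 and 30.3 in the 12 h libraries and 49.3, 53.4 and 48.3 in those of 24 h. Every library from 3 h on lay above every 0 h library, and the level formed a peak at 6 h, a dip at 12 h and a second high level at 24 h. Against 0 h, TRAF1 was 2.89-fold higher at 3 h (log2 fold change 1.53 ± 0.077, SE; adjusted p = 4.5e-11) and 4.44-fold higher at 6 h (2.15 ± 0.0752; adjusted p = 2.1e-13). It was 1.76-fold higher at 12 h (0.82 ± 0.078; adjusted p = 1.6e-06) and 3.04-fold higher at 24 h (1.6 ± 0.0761; adjusted p = 2.8e-11). By log2 fold change TRAF1 ranked 84 from the top of 15365 genes at 3 h, and its ranks for 6, 12 and 24 h were 23, 207 and 50. Each step between neighbouring times from 1 h on was called for TRAF1. It rose by 1.48 on the log2 scale from 1 to 3 h (adjusted p = 3.6e-09) and by 0.62 from 3 to 6 h (adjusted p = 5.3e-06), fell by 1.33 from 6 to 12 h (adjusted p = 2.0e-10) and rose by 0.78 from 12 to 24 h (adjusted p = 3.6e-06).

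TRAF2 (ENSG00000127191, chr9:136881912-136926607, plus strand), the partner through which TRAF1 and the BIRC ligases reach TNF receptors, had a smaller and shorter rise. The 0 h libraries held 51.8, 51.1 and 45.6 CPM and the 1 h libraries 47 and 46.5. At 3 h the level was 62.8, 71.7 and 56.7 CPM, and at 6 h 64.8, 69.1 and 68. At 12 h it was 51.4, 48.4 and 52.6 CPM, and at 24 h 55, 49.5 and 53.3, both overlapping with 0 h. TRAF2 was thus called at 3 h (1.29-fold; log2 fold change 0.36 ± 0.0775, SE; adjusted p = 0.00328) and at 6 h (1.36-fold; 0.44 ± 0.0765; adjusted p = 3.6e-04). The differences of 0.04 at 12 h (adjusted p = 0.806) and 0.09 at 24 h (adjusted p = 0.397) were not called. A correction of each library for transcript length and GC content brought the 24 h value to 0.26 (adjusted p = 8.4e-04).

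TRAF3 (ENSG00000131323, chr14:102777476-102911500, plus strand), the member that holds MAP3K14 for degradation, followed TRAF1 in the times at which it was called, except at 12 h. The 0 h libraries held 38.6, 42.7 and 42.3 CPM, the 1 h libraries 38.4 and 36.6, and the 3 h libraries 53.8, 51.9 and 50.8. The 6 h libraries held 60, 72.4 and 70.1 CPM, the 12 h libraries 43.9, 42.7 and 44.5, and the 24 h libraries 53.9, 59.2 and 57.3. Both 1 h libraries lay below all 0 h libraries, and those of 3, 6 and 24 h lay above them, while at 12 h the lowest library equalled the highest of 0 h after rounding. TRAF3 was 1.27-fold higher at 3 h (log2 fold change 0.34 ± 0.0725, SE; adjusted p = 0.00318), 1.64-fold at 6 h (0.71 ± 0.0709; adjusted p = 9.7e-07) and 1.38-fold at 24 h (0.46 ± 0.0714; adjusted p = 1.1e-04). At 12 h the difference was 0.09 (adjusted p = 0.47). From 6 to 12 h TRAF3 fell by 0.63 (adjusted p = 5.2e-06), and from 12 to 24 h it rose by 0.38 (adjusted p = 0.00263).

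TRAF5 (ENSG00000082512, chr1:211326615-211374946, plus strand), which shares receptors with TRAF2 and TRAF3, was not called at any time against 0 h. Over the 17 libraries it lay between 20.6 and 28.8 CPM, and its means per time between 22 ± 1.35 CPM at 6 h and 26.4 ± 3.3 CPM at 12 h (SD, n = 3 each). The 95% intervals of its log2 fold changes against 0 h reached from -0.34 (6 h) to 0.34 (12 h). With the length and GC correction and the replicate block together, TRAF5 was called lower at 24 h (-0.22; adjusted p = 0.0414).

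TRAF6 (ENSG00000175104, chr11:36487027-36510272, minus strand), the adaptor of the interleukin-1 and Toll-like receptors, was called at 6 h only. Levels were 13.2, 12.9 and 13.7 CPM in the 0 h libraries, 13.7 and 11.1 in those of 1 h, and 13.9, 10.9 and 14.6 in those of 3 h. They were 16.4, 18.1 and 16.1 CPM in the 6 h libraries, 13.8, 14.9 and 12.5 in those of 12 h, and 13.8, 16.4 and 14.1 in those of 24 h. Libraries of 6 h lay above all of 0 h, and those of 24 h did so by a small margin. TRAF6 was 1.27-fold higher at 6 h (log2 fold change 0.34 ± 0.11, SE; adjusted p = 0.0234) and differed by 0.15 at 24 h (adjusted p = 0.295). The 6 h call was lost without 0 h replicate 1 (0.34; adjusted p = 0.0654), without 0 h replicate 2 (0.32; adjusted p = 0.0681), without 6 h replicate 2 (0.29; adjusted p = 0.103), with upper-quartile scaling (0.28; adjusted p = 0.0549) and with replicates 2 and 3 averaged at 6 h and 24 h (0.32; adjusted p = 0.0767).

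TRAF4 (ENSG00000076604, chr17:28743984-28750958, plus strand), the junction-associated member, had its highest mean at 3 h, whereas TRAF1, TRAF2, TRAF3, TRAF6 and TRAF7 had theirs at 6 h. Libraries of 0 h held 45.1, 47.3 and 42.7 CPM, those of 1 h 48.9 and 50.1, and those of 3 h 62.9, 68.5 and 54.8. Later libraries held 52.6, 56.5 and 54.8 CPM (6 h), 43.1, 37.1 and 39 (12 h), and 43.1, 42.3 and 40.9 (24 h). All libraries of 1, 3 and 6 h lay above those of 0 h, although the 1 h difference of 0.14 was not called (adjusted p = 0.987). TRAF4 was 1.38-fold higher at 3 h (log2 fold change 0.46 ± 0.0766, SE; adjusted p = 3.9e-04) and 1.21-fold at 6 h (0.28 ± 0.0763; adjusted p = 0.0103), and it fell by 0.46 from 6 to 12 h (adjusted p = 3.3e-04). With replicates 2 and 3 averaged at 6 h and 24 h the 6 h call was lost (0.25; adjusted p = 0.0663). The drop of 0.18 between 3 and 6 h missed the threshold (adjusted p = 0.0566), and without 3 h replicate 3 it was -0.27 (adjusted p = 0.00602). Estimated counts of TRAF4 were not whole in 12 of the 17 libraries, and its exons overlap the antisense genes AC010761.4 (at most 14 counts) and AC010761.5 (0 counts).

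TRAF7 (ENSG00000131653, chr16:2155698-2178129, plus strand), the member without a TRAF domain, overlapped with 0 h at every time. Its estimated counts were not whole in 10 libraries, and its exons overlap CASKIN1 on the other strand (at most 4 counts). It lay between 68.9 and 88.2 CPM over the 17 libraries, with means of 82.1 ± 5.87 CPM at 0 h and 85.2 ± 3.35 at 6 h, then 73.2 ± 4.69 at 12 h and 74.6 ± 2.34 at 24 h (SD, n = 3 each). Against 0 h the log2 differences were -0.17 at 12 h (adjusted p = 0.107) and -0.14 at 24 h (adjusted p = 0.113), and neither was called. Without 0 h replicate 3 the 24 h difference was -0.19 (adjusted p = 0.0494). From 6 to 12 h it fell by 0.22 (adjusted p = 0.0248), a call lost without 6 h replicate 2 (-0.19; adjusted p = 0.102), without 12 h replicate 1 (-0.22; adjusted p = 0.0675) or without 12 h replicate 2 (-0.17; adjusted p = 0.103), with library size only (-0.19; adjusted p = 0.0578), with upper-quartile scaling (-0.15; adjusted p = 0.124) and with replicates 2 and 3 averaged (-0.21; adjusted p = 0.0828).

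**Figure D2:**
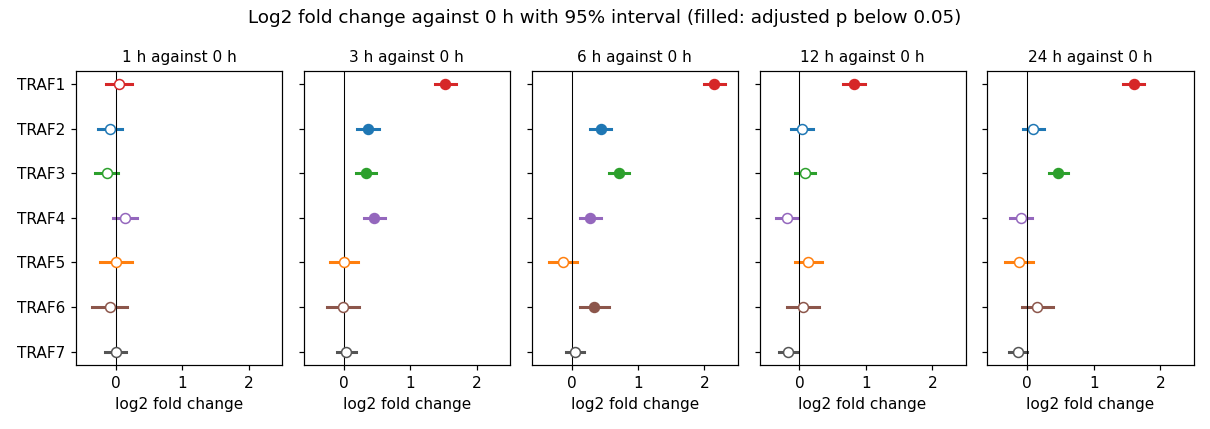
Log2 fold change against 0 h (x axis) of each TRAF gene (y axis), in 1 panel for each later time, with bars for the 95% interval from the edgeR fit and filled points for calls. TRAF1 is at 2.15 at 6 h and 1.6 at 24 h, whereas no other TRAF gene is above 0.71 at any time.

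Between neighbouring times, all members called in a step moved in the same direction. From 1 to 3 h, TRAF1, TRAF2, TRAF3 and TRAF4 rose, 4 of 7 against 3.17% of all genes, and 0 fell against 2.56%. The TRAF2 rise of 0.45 (adjusted p = 0.00395) was lost without 1 h replicate 1 (adjusted p = 0.0553). That of TRAF4, 0.32 (adjusted p = 0.0283), was lost without either 1 h library, without 3 h replicate 1 or without 3 h replicate 2 (adjusted p from 0.0915 to 0.247). From 3 to 6 h, TRAF1, TRAF3 and TRAF6 rose, 3 of 7 against 22.9%, a share near the background, and 0 fell against 20.3%. The TRAF6 rise of 0.36 (adjusted p = 0.0147) was lost without 3 h replicate 2 (0.24; adjusted p = 0.104), without 6 h replicate 2 (0.3; adjusted p = 0.0677) and with the length and GC correction (0.21; adjusted p = 0.0635). That correction in turn made TRAF2 a called riser in this step (0.25 in place of 0.08; adjusted p = 7.8e-04) and TRAF5 a called faller (-0.25 in place of -0.15; adjusted p = 0.0263), so which members were called changed with it. From 6 to 12 h, TRAF1, TRAF2, TRAF3, TRAF4 and TRAF7 fell, 5 of 7 against 11.9%, and 0 rose against 8.7%. TRAF5 had a difference of 0.26 in this step (adjusted p = 0.064), which was 0.37 without 12 h replicate 3 (adjusted p = 0.0174), and TRAF6 one of -0.29 (adjusted p = 0.0649), which was called without 3 h replicate 2 (adjusted p = 0.0364) and with the length and GC correction (-0.29; adjusted p = 0.0135). From 12 to 24 h, TRAF1 and TRAF3 rose, 2 of 7 against 6.42%, and 0 fell against 5.6%. The split of calls over all genes moved with the scaling. Of the genes called at 6 h, 56.2% were higher than at 0 h, and 38.3% with upper-quartile scaling. With library size only, 29.8% were higher at 3 h in place of 50.9%, 58.7% at 12 h in place of 47.9%, and 66.8% at 24 h in place of 51.3%. For the step from 1 to 3 h, 55.3% were higher, 46.8% with upper-quartile scaling and 49.1% with library size only. For the later steps, upper-quartile scaling gave 42.6% higher from 3 to 6 h in place of 53.1%. It gave 66.4% from 6 to 12 h in place of 42.2% and 43.4% from 12 to 24 h in place of 53.4%. Library size only gave 63.8%, 57.1% and 66.9% for these later steps. The median of all genes moved by less than 0.1 under each scaling.

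The members were also set against each other per kilobase of their longest coding transcript, since levels of different genes are comparable only per length. At 0 h the order was led by TRAF7 (22.2 ± 1.59 CPM per kilobase, SD, n = 3) and TRAF2 (21.9 ± 1.5), whose libraries overlapped, and TRAF4 came next (15.4 ± 0.785). TRAF5 (6.07 ± 0.562) and TRAF3 (5.35 ± 0.293) overlapped, as did TRAF6 (2.87 ± 0.087) and TRAF1 (2.62 ± 0.257), which was last. By 6 h TRAF1 held the fourth place at 11.6 ± 0.611, behind TRAF2 (29.7 ± 0.974), TRAF7 (23 ± 0.905) and TRAF4 (18.7 ± 0.654). It was then ahead of TRAF3 (8.77 ± 0.853), TRAF5 (5.54 ± 0.339) and TRAF6 (3.64 ± 0.237), and no neighbours overlapped. Its share of the summed level of the 7 members was 3.43% and 3.57% at 0 and 1 h, 7.92% and 11.5% at 3 and 6 h, and 6.1% and 9.71% at 12 and 24 h. This share and parts of the order rest on the length used. The share at 0 h and 6 h was 2.06% and 7.17% with the mean coding transcript, and 4.71% and 15.3% with merged exons. With merged exons the mean of TRAF7 (19) was above that of TRAF2 (18.4) at 6 h, but their libraries overlapped. Those of TRAF4 (11.9) and TRAF1 (11.4) overlapped there too. With the mean coding transcript TRAF1 took the fifth place at 6 h. TRAF1 had the lowest mean at 0 h with all 3 lengths, each time overlapping with the member before it.

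**Figure D3:**
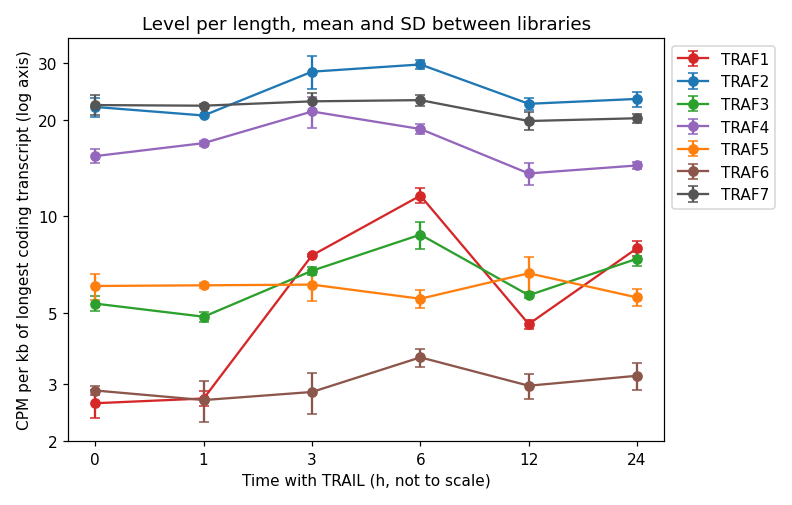
Level per kilobase of longest coding transcript (y axis, log scale, CPM per kilobase) of the 7 TRAF genes against hours with TRAIL (x axis), as means with SD bars. TRAF1 moves from 2.62 at 0 h, the lowest of the 7, to 11.6 at 6 h, the fourth highest.

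Ratios within a library do not depend on how libraries are scaled. The count ratio of TRAF1 to TRAF2 was 0.287, 0.328 and 0.397 at 0 h and 1.09, 1.13 and 1.06 at 6 h. Against TRAF3 the ratio was 0.385, 0.393 and 0.429 in the 0 h libraries and 1.18, 1.08 and 1.03 in those of 6 h. TRAF1 at 6 h thus gave more counts than either partner in every library, without regard to length, where it had given fewer in every library at 0 h. On the log2 scale the mean ratio to TRAF2 was higher than at 0 h by 1.17, 1.71, 0.78 and 1.52 at the 4 times from 3 h on, and the ratio to TRAF3 by 1.19, 1.44, 0.74 and 1.14. Towards TRAF5 the same 4 differences were 1.52, 2.28, 0.69 and 1.72, towards TRAF6 1.56, 1.81, 0.77 and 1.46, towards TRAF4 1.08, 1.87, 1.01 and 1.7, and towards TRAF7 1.49, 2.1, 0.99 and 1.74. In all of these comparisons the libraries did not overlap with 0 h, with an exact two-sided permutation p of 0.1 each, the smallest that 3 against 3 allows, and an adjusted p of 0.125 over the 30 ratios tested. At 1 h the exact permutation p was 0.2 or more.

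**Figure D4:**
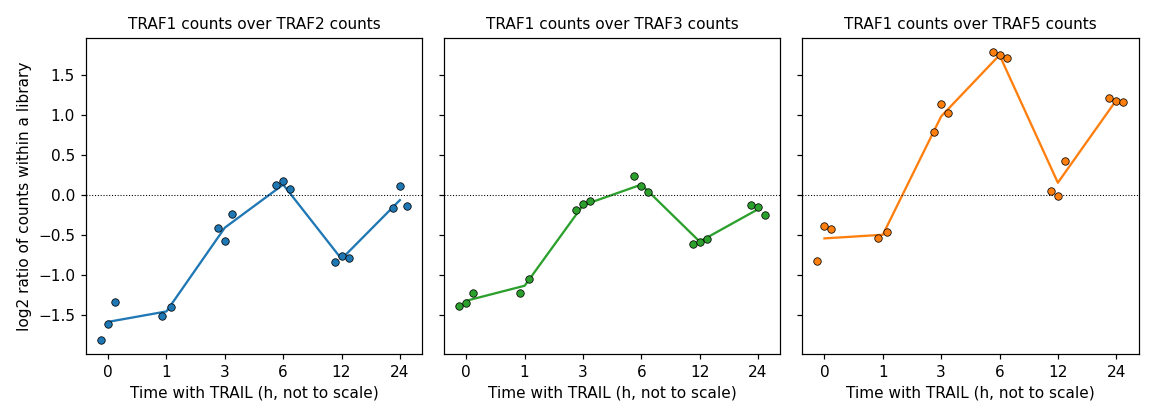
Log2 ratio of TRAF1 counts to those of TRAF2, TRAF3 and TRAF5 (1 panel each) within a library (y axis) by hours with TRAIL (x axis, not to scale), with 1 point per library and a line through the means. The ratios to TRAF2 and TRAF3 are below 0 at 0 h and above 0 at 6 h in all libraries.

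For each member the genes with the most similar profile were taken by Pearson's correlation of log2 CPM over the 17 libraries, among 11328 genes whose average log2 CPM was 2 or more. Since libraries of a time share that time, the values describe likeness and carry no test. Closest to TRAF1 were ZBED4 (r = 0.957), USP42 (0.951) and ZNFX1 (0.949). TRAF3 lay closest to PLAGL2 (0.974), TNFRSF10A (0.969), which encodes a death receptor for TRAIL, and ZBED4 (0.967), which was thus in both sets. The sets were EHD1 (0.948), TRIM11 (0.929) and TMEM132A (0.919) for TRAF2, and DGKD (0.946), PLEC (0.935) and UCK2 (0.933) for TRAF4. TRAF6 lay closest to MFSD14B (0.923), UBP1 (0.922) and MOB1A (0.916), and TRAF7 to FBRSL1 (0.917), ARHGDIA (0.916) and ATAD3A (0.913). TRAF5, the only member not called in the test over all times, had the lowest values, with ZNF721 (0.841), RPS6KL1 (0.8) and FTX (0.793). With the means of the 6 times in place of libraries, 1 of 3 genes remained for TRAF2 and TRAF3 and 0 for the other members.

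The genes around the family were counted in 5 lists, each read against the share of all genes called at the same time given above. Among TNF receptors that bind TRAFs, 12 of 18 were tested, and CD27, EDA2R, TNFRSF4, TNFRSF8, TNFRSF13B and TNFRSF17 had too few counts. At 1 h 0 were called. At 3 h 1 was higher and 2 were lower, at 6 h 1 was higher and 4 lower, at 12 h 1 higher and 2 lower, and by 24 h 4 were higher and 2 lower, when the list's median was -0.01 on the log2 scale. The shares higher were 8.33%, 8.33%, 8.33% and 33.3% at 3, 6, 12 and 24 h, beside 9.04%, 16.9%, 5.96% and 18% of all genes. The shares lower were 16.7%, 33.3%, 16.7% and 16.7%, beside 8.71%, 13.2%, 6.48% and 17.1%. With 12 genes, the counts of 1 and 2 lie near the shares of all genes. TNFRSF9 (4-1BB, a costimulatory receptor) was at 5.04 CPM at 24 h against 1.58 at 0 h (log2 fold change 1.68; adjusted p = 2.5e-05). NGFR (the low-affinity neurotrophin receptor) fell by 0.82 at 6 h (adjusted p = 0.0116) and rose by 1.16 at 24 h, from 2.14 to 4.77 CPM (adjusted p = 2.1e-04). TNFRSF13C (the BAFF receptor) was lower at 12 h (-1.11; adjusted p = 0.031) and at 24 h, with 0.387 CPM against 1.39 (-1.82; adjusted p = 9.3e-04). Without 0 h replicate 1 the calls of NGFR at 6 h (-0.65; adjusted p = 0.0768) and TNFRSF13C at 12 h (-1.03; adjusted p = 0.103) were lost. So were those of TNFRSF9 at 6 h (0.53 in place of 0.78; adjusted p = 0.116) and 12 h (0.59 in place of 0.84; adjusted p = 0.133). Without that library 0 of the list were lower at 6 h and at 12 h. TNFRSF13C was at 0.64 CPM at 12 h. Its call there was also lost without 0 h replicate 3 or any of the 12 h libraries (adjusted p from 0.0543 to 0.104). These calls of NGFR and TNFRSF9 were also lost without some other libraries of those times. TNFRSF12A (the TWEAK receptor) was higher at 3 h (0.53) and lower at 12 h (-0.41) and 24 h (-0.75), the 12 h call being lost without 0 h replicate 1 or 12 h replicate 2 (adjusted p = 0.0675 and 0.0817).

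Of the partners and kinases downstream of TRAFs, 24 of 25 were tested. The 24 include TRAF3IP2-AS1, by its symbol an antisense RNA, at 1.89 CPM at 0 h, which was not called at any time against 0 h. At 1 h 0 were called. At 3 h 4 were higher and 1 lower, at 6 h 9 were higher and 0 lower, at 12 h 6 higher and 1 lower, and by 24 h 13 were higher and 1 lower. The shares higher were 16.7%, 37.5%, 25% and 54.2% at 3, 6, 12 and 24 h, beside 9.04%, 16.9%, 5.96% and 18% of all genes. The shares lower were 4.17%, 0%, 4.17% and 4.17%, beside 8.71%, 13.2%, 6.48% and 17.1%. The median log2 fold change was 0.22 at 6 h and 0.25 at 24 h, beside -0.022 and -0.0017 over all genes. BIRC3, the ligase carried by TRAF2, rose to 198 CPM at 3 h from 42.5 at 0 h (log2 fold change 2.22; adjusted p = 1.5e-11). It was at 187 CPM at 6 h, at 106 CPM at 12 h (1.32; adjusted p = 7.6e-08) and at 175 CPM at 24 h (2.04; adjusted p = 3.0e-11). Its relative BIRC2 rose from 114 to 234 CPM at 6 h (1.04; adjusted p = 9.0e-08). MAP3K14, the kinase that TRAF3 holds, was higher at 3 h (0.53; adjusted p = 3.2e-05), 6 h (0.22; adjusted p = 0.0232) and 24 h (0.39; adjusted p = 4.2e-04). The 6 h call was lost without 0 h replicate 1 or 3, without 6 h replicate 2 or 3, with upper-quartile scaling and with replicates 2 and 3 averaged (adjusted p from 0.0724 to 0.139). TRAIP, a protein named for binding TRAFs, was lower at 12 h (-0.41) and 24 h (-0.4). The count of 13 at 24 h was 7 without 24 h replicate 2, that of 9 at 6 h was 4 with replicates 2 and 3 averaged, and that of 6 at 12 h was 2 without 12 h replicate 2. The 1 lower at 3 h moved in 17 of 31 alternatives and ranged from 0 to 4.

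In the branch of TRAF6, which holds interleukin-1 and Toll-like receptors and their adaptors, all 17 genes were tested. At 1 h 0 were called. At 3 h 3 were higher and 2 lower, at 6 h 4 were higher and 1 lower, at 12 h 2 higher and 0 lower, and by 24 h 7 were higher and 1 lower. The shares higher were 17.6%, 23.5%, 11.8% and 41.2% at 3, 6, 12 and 24 h, beside 9.04%, 16.9%, 5.96% and 18% of all genes. The shares lower were 11.8%, 5.88%, 0% and 5.88%, beside 8.71%, 13.2%, 6.48% and 17.1%. With 17 genes, the 4 higher at 6 h and the 2 lower at 3 h lie near the shares of all genes. The count of 7 at 24 h was 3 without 24 h replicate 2, and that of 4 at 6 h was 2 without 0 h replicate 1. The 2 higher at 12 h were 1 without 0 h replicate 1 or 2 or without 12 h replicate 2 or 3, and the 2 lower at 3 h were 1 in 15 of 31 alternatives. IRAK2, which binds TRAF6, rose from 13.2 to 30.5 CPM at 6 h (1.21; adjusted p = 1.5e-07) and was higher at 24 h (0.96; adjusted p = 3.8e-06). Smaller rises were called at 3 h (0.44; adjusted p = 0.0106) and 12 h (0.57; adjusted p = 0.00191), the 3 h call being lost without 3 h replicate 1 (adjusted p = 0.0528). TLR3, the sensor of double-stranded RNA, was lower at 3 h, with 1.86 against 3.78 CPM (-1.02; adjusted p = 4.3e-04), and at 6 h (-0.78; adjusted p = 0.00151).

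Among regulators and deubiquitinases of TRAFs, all 15 genes were tested. At 1 h 2 were higher, at 3 h 5 and at 6 h 7, with 0 lower, and 4 were higher and 1 lower at 12 h, and 6 higher and 2 lower by 24 h. The shares higher were 33.3%, 46.7%, 26.7% and 40% at 3, 6, 12 and 24 h, beside 9.04%, 16.9%, 5.96% and 18% of all genes. The 6.67% lower at 12 h and 13.3% lower at 24 h lie near the 6.48% and 17.1% of all genes. The 0 lower at 3 h and at 6 h stood beside 8.71% and 13.2% of all genes. The 0 lower at 6 h became 1 in 15 of 31 alternatives. At 1 h the 2 calls were 13.3% of this list, beside 0.26% of all genes and 0 of the 7 TRAF genes. ZC3H12A (an RNase that limits inflammatory transcripts) rose from 7.18 to 14.8 CPM at 1 h (1.05; adjusted p = 5.8e-04) and TNFAIP3 (A20, which edits ubiquitin chains) by 0.61 (adjusted p = 0.0159). The 1 h call of TNFAIP3 was lost without either 1 h library and without 0 h replicate 2 or 3 (adjusted p from 0.0565 to 0.25). At 3 h TNFAIP3 was at 25.9 CPM against 8.71 (1.57; adjusted p = 1.5e-09) and ZC3H12A was higher by 1.3. TNFAIP3 was also called higher at 6, 12 and 24 h (0.98, 0.66 and 0.67), and ZC3H12A at 6 h (0.66) but not at 12 or 24 h. CYLD, a deubiquitinase of TRAF2, was higher at 3, 6, 12 and 24 h (0.34, 0.69, 0.4 and 0.62). Its 3 h call was lost with library size only and without 0 h replicate 1 or 2 or 3 h replicate 1 or 3 (adjusted p from 0.0545 to 0.0709), and its 12 h call without 12 h replicate 2 (adjusted p = 0.06). Of other genes with a MATH domain, 4 of 6 were tested. At 3 h 1 (SPOP) was lower (-0.18; adjusted p = 0.0392, a call lost in 8 of 31 alternatives, among them each 0 h library left out). At 6 h 3 were higher (75% beside 16.9% of all genes), 0 were called at 1 h or 12 h, and 1 was higher at 24 h. With 4 genes, the counts of 1 lie near the shares of all genes (8.71% lower at 3 h and 18% higher at 24 h). TRIM37 rose at 6 h (0.36; adjusted p = 0.00503) and 24 h (0.44; adjusted p = 0.00112), and SPOPL at 6 h (0.38; adjusted p = 0.042), a call lost without 6 h replicate 2 or 3, 0 h replicate 1 or 2, or 12 h replicate 3 (adjusted p from 0.0524 to 0.214), with upper-quartile scaling (adjusted p = 0.0718), with library size only (adjusted p = 0.0623) and with replicates 2 and 3 averaged (adjusted p = 0.138).

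**Figure D5:**
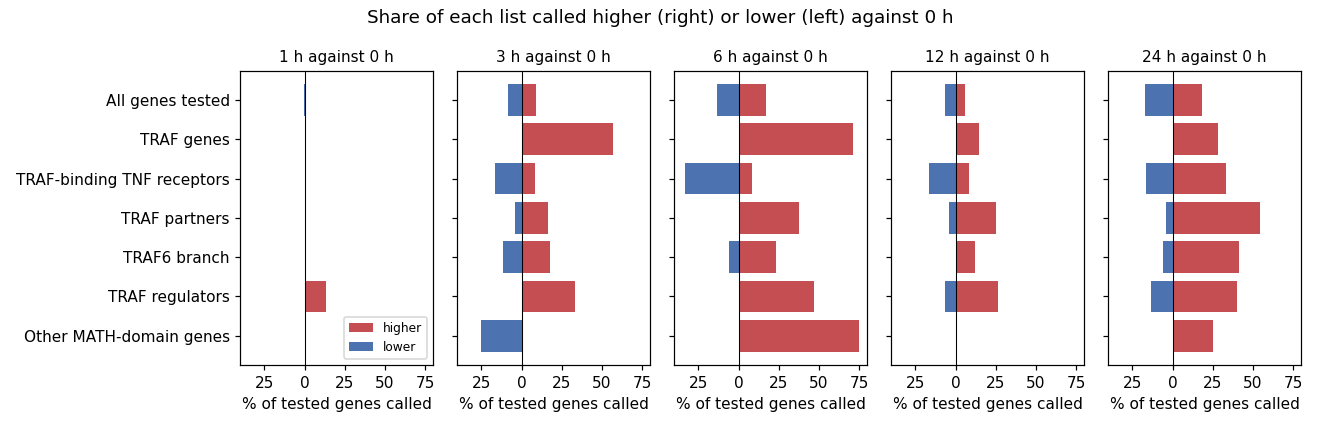
Share of tested genes called higher (to the right) or lower (to the left) in percent (x axis) for the TRAF genes, the 5 lists of genes around them and all genes tested (y axis), in 1 panel for each later time against 0 h. At 24 h, 54.2% of the TRAF partners and kinases were higher beside 18% of all genes.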

How the data were processed

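RNA of 17 libraries of 1 cell line was measured with stranded, paired-end mRNA libraries, per the labels' protocols. The authors deposited expected counts, estimated fragment numbers per gene that are scaled to neither depth nor length. The build hg38 and the tools cutadapt 1.18 and STAR 2.7.0f are named in the submitters' processing notes. Neither the annotation release nor the strandedness used in counting is given in the sources used here. Groups are the 6 time points in the sample titles. Nothing in the labels says that replicates were separate cultures, so p-values measure the spread between these libraries, which may be technical.

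Expected counts were rounded, filtered with filterByExpr (15365 of 58870 entries kept) and scaled by TMM (factors 0.939 to 1.06). A robust quasi-likelihood model of edgeR 4.0.16 in R 4.3.3, with 1 mean per time over all 17 libraries, gave each later time against 0 h, each time against the one before and an F-test over all times, with Benjamini-Hochberg adjustment and a threshold of 0.05. Common dispersion corresponded to a biological coefficient of variation of 7.06%. The edgeR fit was tested on simulated counts with known changes, read at 3 h and 12 h against 0 h. How many of these changes it recovered is not reported here. The other steps were not tested in this way. CPM use TMM-scaled totals. Gene positions and lengths are from GENCODE 29, in which 58597 entries matched by Ensembl identifier without version, all 7 TRAF genes among them. Upstream sequences are from RefSeq (GRCh38.p14).

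The 7 genes and the 5 lists were chosen with earlier results of these data known. Named were all 7 genes, the 3 most similar genes of each (prior count of 2), and from each list the genes called with a log2 fold change of 1 or more in size or, failing that, the 2 with the largest called change, while other list genes were named beside a count. Alternatives covered scaling, filter, DESeq2 1.42.0, limma-voom (limma 3.58.1), estimation, the libraries fitted, rounding, a length and GC correction, a replicate block, averaged libraries and each library left out.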

Additional observations from a re-analysis of the deposited data

How the results depend on the processing

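Under 31 alternatives to each of the TRAF values, 783 of 806 recomputed values of called changes kept their direction and their call, 23 lost the call and 0 turned. The calls of TRAF1 at 3, 6, 12 and 24 h, of TRAF3 at 3, 6 and 24 h, of TRAF2 at 3 and 6 h and of TRAF4 at 3 h were kept under all 31. Of 1147 values of changes that were not called, 25 became calls and 33 changed sign.

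Counts of TRAF genes that moved were as follows. The 5 higher at 6 h against 0 h were 3 with replicates 2 and 3 averaged, and 4 to 5 with a library left out. The 4 higher from 1 to 3 h were 2 when only the 2 groups were fitted, and 2 to 4 with a library left out. The 0 lower from 3 to 6 h became 1 (TRAF4) with upper-quartile scaling and with a mean count of at least 10, and 1 (TRAF5) with the length and GC correction, alone or with the replicate block. The 0 higher from 6 to 12 h became 1 (TRAF5) with upper-quartile scaling, library size only, no filter, only the 2 groups and the length and GC correction, alone or with the replicate block. The 0 lower from 12 to 24 h became 1 (TRAF5) with the length and GC correction, alone or with the replicate block, and the 0 lower at 24 h against 0 h became 1 (TRAF5) with that correction and the replicate block. In each of these 4 counts of 0 the range with a library left out was 0 to 1.

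Values near 0 that changed sign, with the cause not tested, were these. Upper-quartile scaling gave TRAF7 -0.02 at 6 h and -0.05 from 3 to 6 h, and TRAF5 -0.01 from 1 to 3 h. Library size only gave TRAF5 -0.04 at 1 h, -0.05 at 3 h and -0.02 from 1 to 3 h, and TRAF7 -0.03 at 3 h. No filter gave TRAF5 -0.01 at 3 h and -0.01 from 1 to 3 h. The length and GC correction gave TRAF6 0.04 at 3 h and -0.04 at 12 h, both also with the replicate block, which with that correction gave TRAF5 -0.03 at 1 h. With a library left out, TRAF1 ranged from -0.02 to 0.12, TRAF5 from -0.06 to 0.07 and TRAF6 from -0.25 to 0.04 at 1 h. At 3 h TRAF5 ranged from -0.07 to 0.08, TRAF6 from -0.09 to 0.1 and TRAF7 from -0.01 to 0.1, and at 12 h TRAF2 from -0.03 to 0.07 and TRAF6 from -0.01 to 0.12. From 1 to 3 h TRAF5 ranged from -0.08 to 0.08 and TRAF6 from -0.05 to 0.24, from 3 to 6 h TRAF7 from -0.05 to 0.04, and from 12 to 24 h TRAF7 from -0.02 to 0.08.

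The replicate numbers were not shown to pair libraries, since 8 of 40 pairs of the same number had a correlation of their deviations over 0.1 (from -0.2 to 0.21, median 0.011), and 7 of 17 libraries correlated best with their own number. With the replicate block alone, 5 TRAF genes were still called higher at 6 h, and TRAF5 at 1 h was -0.02.

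Of 50 counts of calls in the lists, 24 moved by over 1.5 times under at least 1 alternative. Beside those in the report, TNF receptors higher at 12 h numbered 1 and up to 4 (length and GC correction with the replicate block), partners at 3 h 4 and 7 higher (length and GC correction) or 1 and 4 lower (library size only), and regulators higher at 3 h 5 and 8 (length and GC correction). Over all genes, library size only gave 913 higher and 2153 lower at 3 h in place of 1389 and 1338, and upper-quartile scaling 3047 lower at 6 h in place of 2025, and 2184 higher and 1104 lower from 6 to 12 h in place of 1337 and 1831. Of 1395 recomputed values behind the calls against 0 h of the list genes named by the rule and of TNFRSF12A, MAP3K14, TRAIP, CYLD and SPOP, 1346 kept the call, 49 lost it and 0 turned. Groups of 2 or 3 libraries limit what could be detected, most of all at 1 h.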
